A study of Mus musculus with 12 samples.

Results

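The genes of glycogen synthesis and breakdown described here were 9 genes chosen by symbol, Gys2, Pygl, Ppp1r3b, Ppp1r3c, Ppp1r3g, Gbe1, Ugp2, Gyg and Phka2, out of 48795 genes in the table. All 9 had enough counts to be among the 13812 genes tested. Livers came from female mice of 4 months on normal chow, and the paper's methods describe the mice of all its studies as littermates matched for age and sex. Mice labelled NTS WT (Nts+/+) and NTS KO (Nts-/-, a whole-body deletion of the neurotensin gene, bred from heterozygous parents) had free access to food (fed) or went without it for 22 h (fasted), with 3 mice in each of the 4 groups. The fed groups were mice 254, 257 and 323 (labelled WT) and mice 277, 303 and 319 (labelled KO). The fasted groups were mice 265, 282 and 322 (labelled WT) and mice 284, 290 and 295 (labelled KO). Whole liver was sequenced, so hepatocytes were measured together with the other cells of the organ, and 1 batch label covers all the mice.

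Glycogen is the branched glucose store of the liver, filled after a meal and emptied during a fast to supply blood glucose. Ugp2 makes UDP-glucose, the glucose donor; Gyg (glycogenin) primes the chain; Gys2, the liver glycogen synthase, extends it; and Gbe1 adds the branches. Pygl, the liver glycogen phosphorylase, releases glucose 1-phosphate from the chain ends and is switched on by phosphorylase kinase, of which Phka2 is the liver alpha subunit. Ppp1r3b, Ppp1r3c and Ppp1r3g bring protein phosphatase 1 (PP1) to glycogen, where it removes phosphate from the synthase and the phosphorylase, activating the first and inactivating the second. Much of this control acts on the proteins, through phosphate and through glucose itself, and RNA counts do not measure it.

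The genes lie on 9 chromosomes. In GRCm38, Gys2 (ENSMUSG00000030244) spans chr6:142422613-142473109, Pygl (ENSMUSG00000021069) chr12:70190811-70231488 and Ppp1r3b (ENSMUSG00000046794) chr8:35375739-35388139. Ppp1r3c (ENSMUSG00000067279) spans chr19:36731737-36736653, Ppp1r3g (ENSMUSG00000050423) chr13:35958839-35970388 and Gbe1 (ENSMUSG00000022707) chr16:70313949-70569716. Ugp2 (ENSMUSG00000001891) spans chr11:21321138-21371201, Gyg (ENSMUSG00000019528) chr3:20122084-20155317 and Phka2 (ENSMUSG00000031295) chrX:160502166-160598878. The genes that overlap them held at most 12 counts in any library.

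Promoter sequences were taken from RefSeq (GRCm38.p6) for the 7 of 9 genes listed there, Gys2 and Ppp1r3b being the others. Shown are the 250 bases before the start of Pygl (chr12:70227684-70227933, minus strand), the gene of the list that passed the test as lower on fasting in both genotypes; of Ppp1r3c (chr19:36736605-36736854, minus strand), which differed most between fasted mice of a genotype among the abundant members; and of Ugp2 (chr11:21371268-21371517, minus strand), the member with the smallest p between genotypes. For Ugp2 a second start is listed, with its 250 bases at chr11:21370630-21370879, and the outer start is shown as the one nearer the gene's annotated end of 21371201. The listed start of Pygl lies inside the gene's annotated span, which ends at 70231488. That of Ppp1r3g does too, with its bases from chr13:35967656 and the span from 35958839. These windows are therefore not at the outer ends of those spans. Each reads 5′ to 3′ towards the start, and capitals mark a searched motif.
Pygl: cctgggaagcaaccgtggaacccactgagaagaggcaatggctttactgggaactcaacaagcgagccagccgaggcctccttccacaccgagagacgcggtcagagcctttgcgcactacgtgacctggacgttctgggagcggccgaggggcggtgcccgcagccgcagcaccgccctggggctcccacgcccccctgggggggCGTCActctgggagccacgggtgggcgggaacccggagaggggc
Ppp1r3c: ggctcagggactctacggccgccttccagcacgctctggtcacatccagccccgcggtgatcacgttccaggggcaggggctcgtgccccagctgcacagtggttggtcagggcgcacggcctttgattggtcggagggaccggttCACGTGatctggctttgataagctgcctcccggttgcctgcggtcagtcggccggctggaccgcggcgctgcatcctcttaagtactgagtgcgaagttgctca
Ugp2: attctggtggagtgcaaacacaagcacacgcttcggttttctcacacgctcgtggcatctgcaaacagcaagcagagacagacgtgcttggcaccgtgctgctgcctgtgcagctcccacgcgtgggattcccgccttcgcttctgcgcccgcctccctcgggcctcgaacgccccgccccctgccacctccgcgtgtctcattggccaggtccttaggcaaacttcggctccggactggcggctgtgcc

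The windows searched held these 250 bases and the next 50, on both strands. TGACG, the core of the cAMP response element bound by CREB, stood in the windows of 3 of the 7 genes, against 20.8% of 32851 promoters. The matches were in Pygl, where the minus-strand match gives the capitals CGTCA at -44, in Ppp1r3g at -40 and in Gyg at 13. CACGTG, an E-box, stood in Ppp1r3c at -104 and in Gyg at 9, against 7.15% of promoters. GTAAACA, a forkhead (FoxO) site, was in none of the 7, against 3.65% of promoters. These matches describe the letters only; binding was not measured.

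The targeted gene was counted only in libraries labelled KO, the label of its deletion. The paper's introduction places the hormone in the central nervous system and in cells of the small intestine. Nts had 0 counts in all 6 libraries labelled WT, where a count of 0 allows up to 3 counts, or 0.0833 to 0.136 CPM (counts scaled to a fixed library total). It had 46, 40 and 15 counts in the fed libraries labelled KO and 12, 4 and 18 in the fasted ones. Why Nts was counted under the KO label was not tested. Genotype is therefore given as labelled throughout, and every direction between genotypes follows the labels. Library totals lay between 21999656 and 45273081 counts (median 26230922), the deepest being mouse 295 of the fasted group labelled KO. The floor of 3 counts covers counting error only. The intervals of log2 fold changes given below come from the edgeR fit and include the spread between mice. As a check of the feeding labels, 3 of 6 genes known to rise on fasting rose in livers labelled WT and 4 of 6 in livers labelled KO, and 6 of 6 genes known to fall fell in both. Cpt1a, the entry enzyme of mitochondrial fatty acid oxidation, rose by 1.53 and 1.67 on the log2 scale in livers labelled WT and KO. Srebf1, a regulator of lipogenesis, had log2 fold changes of -2.90 and -3.32.

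To see how the glycogen genes responded to the fast, fasted livers were compared with fed livers within each genotype label. Of the 9 genes, 2 changed in livers labelled WT and 3 in livers labelled KO (edgeR, Benjamini-Hochberg adjusted p under 0.05 over all genes tested). Gys2 rose and Pygl fell in both, and Ppp1r3b fell in livers labelled KO. Over all genes tested, 18.1% changed in livers labelled WT and 16.8% in livers labelled KO, so 2 and 3 of 9 are not far from that background. The background itself moved when a mouse was left out, from 2501 genes to as few as 1224 (without mouse 282) and from 2326 to as few as 1358 (without mouse 277), while 2 and 3 members stayed called. The median log2 fold change of the 9 genes was -0.20 in livers labelled WT and 0.08 in livers labelled KO, against -0.0032 and -0.01 over all genes tested. With both genotypes averaged, the same 3 genes changed, against 32.8% of all genes. In bulk liver, fewer cells of a type and less RNA per cell cannot be told apart.

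**Figure D1:**
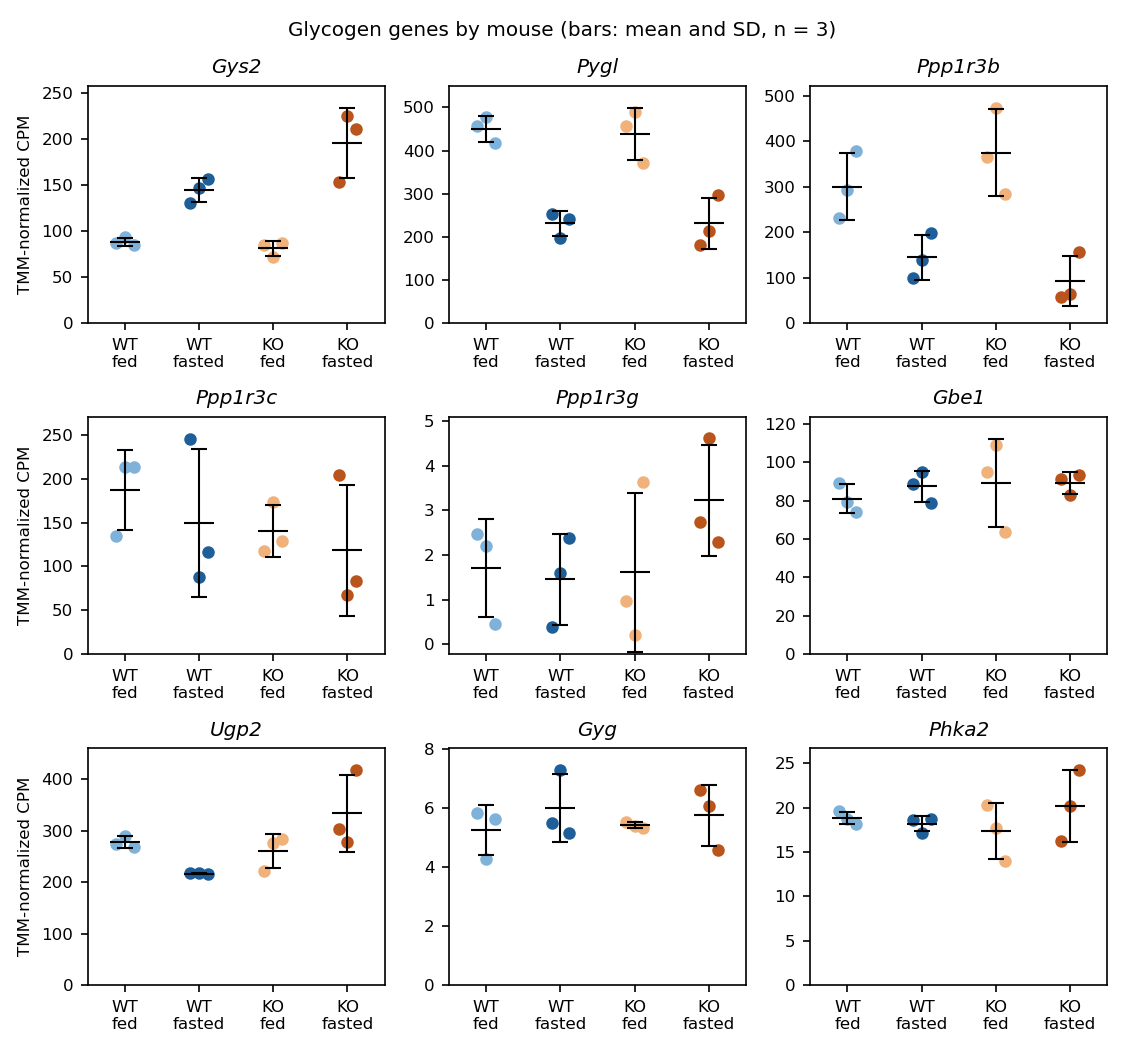
TMM-normalized CPM (vertical axis, scale set for each gene) of the 9 glycogen genes in each mouse, by genotype label and feeding state; points are mice, bars are the mean and SD (n = 3), and a bar may reach below 0 where the SD exceeds the mean. Fasted mice lie above fed mice for Gys2 and below them for Pygl in both genotypes, while Ppp1r3c and Ppp1r3g spread widely within groups.

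Gys2, the enzyme that lengthens glycogen chains, was the only member that rose. Its level in livers labelled WT was 87.4, 93.2 and 84.5 TMM-normalized CPM in fed mice and 131, 147 and 157 in fasted mice, a mean of 88.3 ± 4.39 (SD, n = 3) against 145 ± 13.1 (SD, n = 3). Every fasted mouse lay above every fed mouse. The fold change was 1.64 (log2 0.71, SE 0.15, edgeR adjusted p = 0.0056). In livers labelled KO the fed mice had 84.8, 72.1 and 87.1 and the fasted mice 153, 225 and 211, a mean of 81.3 ± 8.09 (SD, n = 3) against 196 ± 38.0 (SD, n = 3). Again the groups did not overlap, and mouse 284 was the lowest of the fasted mice. The fold change was 2.41 (log2 1.27, SE 0.15, edgeR adjusted p = 0.00012).

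The other 3 genes of synthesis did not pass the test in either genotype. Ugp2 had 275, 290 and 269 TMM-normalized CPM in fed mice labelled WT and 217, 217 and 216 in fasted ones, all 3 fasted mice lying below the fed mice. In livers labelled KO the order was the other way for the means, with 222, 277 and 283 in fed mice and 303, 279 and 419 in fasted mice, and the groups overlapped. The log2 fold changes were -0.36 (SE 0.15, edgeR adjusted p = 0.12) and 0.35 (SE 0.15, edgeR adjusted p = 0.13). The second value rested largely on mouse 295, the deepest library, and was 0.16 without it.

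Gbe1, the branching enzyme, had group means of 81.0 ± 7.65, 87.4 ± 8.23, 89.1 ± 23.1 and 89.2 ± 5.59 TMM-normalized CPM (SD, n = 3 each) in fed and fasted mice labelled WT and fed and fasted mice labelled KO. The 95% interval of its log2 fold change on fasting ran from -0.25 to 0.47 in livers labelled WT and from -0.36 to 0.36 in livers labelled KO. Gyg, the primer of new glycogen particles, was low, with means of 5.24 ± 0.852, 5.99 ± 1.15, 5.41 ± 0.107 and 5.75 ± 1.04 (SD, n = 3 each) in the same order, from 116 to 221 counts a library. Its intervals ran from -0.23 to 0.61 and from -0.34 to 0.50. A change in Gbe1 or Gyg of the size seen for Gys2 in livers labelled KO (log2 1.27) lies outside these intervals.

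Of the genes of breakdown, Pygl fell and Phka2 did not pass the test. Pygl, the liver phosphorylase, had 458, 477 and 418 TMM-normalized CPM in fed mice labelled WT and 254, 198 and 241 in fasted ones, a mean of 451 ± 30.2 (SD, n = 3) against 231 ± 29.4 (SD, n = 3). In livers labelled KO it had 457, 489 and 372 in fed mice and 182, 213 and 298 in fasted mice, a mean of 439 ± 60.5 (SD, n = 3) against 231 ± 60.2 (SD, n = 3). Fed and fasted mice did not overlap under either label. The level was 1.95-fold lower in fasted mice labelled WT (log2 -0.97, SE 0.18, edgeR adjusted p = 0.0030) and 1.90-fold lower in fasted mice labelled KO (log2 -0.93, SE 0.18, edgeR adjusted p = 0.0039).

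Phka2, which belongs to the kinase that activates the phosphorylase, had means of 18.9 ± 0.728, 18.2 ± 0.864, 17.3 ± 3.17 and 20.2 ± 4.07 TMM-normalized CPM (SD, n = 3 each) in fed and fasted mice labelled WT and fed and fasted mice labelled KO. Its log2 fold change was -0.06 in livers labelled WT and 0.23 in livers labelled KO, with intervals from -0.40 to 0.29 and from -0.11 to 0.57.

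Of the 3 PP1 targeting subunits, Ppp1r3b alone passed the test, in livers labelled KO; differences between the 3 genes were not tested. Ppp1r3b, the main glycogen-targeting subunit of liver, had 230, 292 and 378 TMM-normalized CPM in fed mice labelled WT and 98.2, 139 and 197 in fasted ones, a mean of 300 ± 74.3 (SD, n = 3) against 145 ± 49.7 (SD, n = 3). The groups did not overlap, but the log2 fold change of -1.05 (SE 0.40) had an edgeR adjusted p = 0.097. In livers labelled KO it had 366, 474 and 284 in fed mice and 58.0, 63.0 and 157 in fasted mice, a mean of 375 ± 95.1 (SD, n = 3) against 92.6 ± 55.6 (SD, n = 3). Here too the groups did not overlap, and mouse 295 held the highest of the fasted values. The level was 4.04-fold lower (log2 -2.01, SE 0.41, edgeR adjusted p = 0.0085), and without mouse 295 the log2 fold change was -2.63.

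Ppp1r3c, the subunit also called protein targeting to glycogen, varied among fasted mice. In livers labelled WT it had 135, 213 and 214 TMM-normalized CPM in fed mice and 246, 87.9 and 116 in fasted mice, and in livers labelled KO 118, 174 and 129 against 204, 67.2 and 83.4. In each genotype 1 fasted mouse, 265 and 284, lay above all 3 of its fed mice and the other two lay below them. The log2 fold changes were -0.32 (SE 0.47, edgeR adjusted p = 0.68) and -0.25 (SE 0.47, edgeR adjusted p = 0.77). Both values turned on single mice: the first was -0.87 without mouse 265 and -0.06 without mouse 282, and the second was -0.89 without mouse 284 and 0.03 without mouse 290. Mice 265 and 284 also had the lowest Gys2 and the lowest Ppp1r3b of their groups, 131 and 153 for Gys2 and 98.2 and 58.0 for Ppp1r3b.

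Ppp1r3g, a subunit known to be regulated by feeding state, was low and varied widely between mice, with 6 to 107 counts a library. The fed mice labelled KO had 37, 6 and 90 counts. Its means were 1.71 ± 1.1, 1.45 ± 1.01, 1.61 ± 1.79 and 3.22 ± 1.24 TMM-normalized CPM (SD, n = 3 each) in fed and fasted mice labelled WT and fed and fasted mice labelled KO. The intervals of its log2 fold change were wide, from -2.22 to 1.81 and from -0.96 to 3.00. The first holds a change of several fold in either direction. The second holds a rise of several fold but not a fall of that size.

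**Figure D2:**
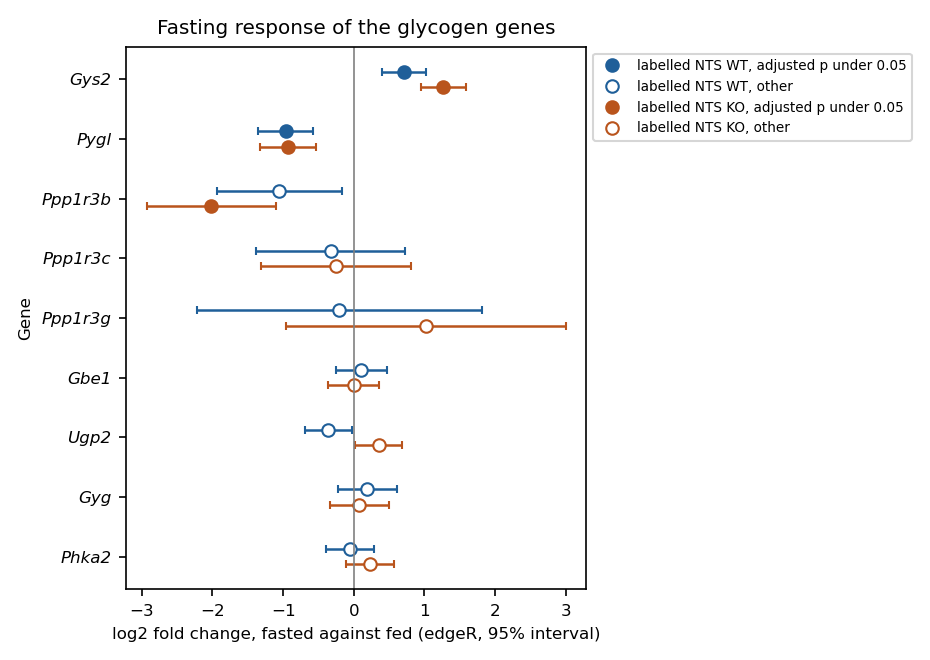
Log2 fold change of each glycogen gene in fasted against fed livers (horizontal axis, edgeR) with its 95% interval, for mice labelled WT and KO; filled points have an adjusted p under 0.05. Gys2 lies at 0.71 and 1.27, Pygl at -0.97 and -0.93 and Ppp1r3b at -1.05 and -2.01, while the intervals of Ppp1r3c, Ppp1r3g, Gbe1, Gyg and Phka2 include 0.

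By the values of single mice, fed and fasted groups did not overlap for 4 of the 9 genes in livers labelled WT (Gys2 higher; Pygl, Ppp1r3b and Ugp2 lower) and for 3 in livers labelled KO (Gys2 higher; Pygl and Ppp1r3b lower). Of all genes tested, 36.0% did not overlap in livers labelled WT and 35.2% in livers labelled KO. Gys2 and Pygl were called under both labels, in the same direction, as were 10.7% of all genes tested.

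Because Gys2 and Pygl act on the same chain ends in opposite directions, their counts were compared within each library, a ratio that does not depend on normalization between mice. In fed mice the ratio of Gys2 to Pygl counts was 0.191, 0.195 and 0.202 in livers labelled WT and 0.186, 0.147 and 0.234 in livers labelled KO. In fasted mice it was 0.514, 0.741 and 0.651 in livers labelled WT and 0.842, 1.06 and 0.707 in livers labelled KO. Every fasted mouse lay above every fed mouse. The log2 ratio averaged -2.35 ± 0.0404 and -0.67 ± 0.268 (SD, n = 3 each) in fed and fasted mice labelled WT, and -2.43 ± 0.335 and -0.22 ± 0.291 (SD, n = 3 each) in those labelled KO. The ratio carries no test of its own, since both genes are tested above, and it is not corrected for transcript length.

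The ratio of Ppp1r3b to Ppp1r3c counts, the more abundant targeting subunits, was 1.70, 1.37 and 1.76 in fed mice labelled WT and 3.09, 2.72 and 2.21 in fed mice labelled KO. In fasted mice it was 0.399, 1.58 and 1.70 in livers labelled WT and 0.285, 0.938 and 1.88 in livers labelled KO. The 2 low ratios belonged to mice 265 and 284. Fed and fasted mice overlapped in livers labelled WT and did not overlap in livers labelled KO. This ratio too is not corrected for transcript length. Per kilobase, Ppp1r3c had a mean of 56.0 CPM and Ppp1r3b 49.3 in fed mice labelled WT, with overlapping ranges.

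**Figure D3:**
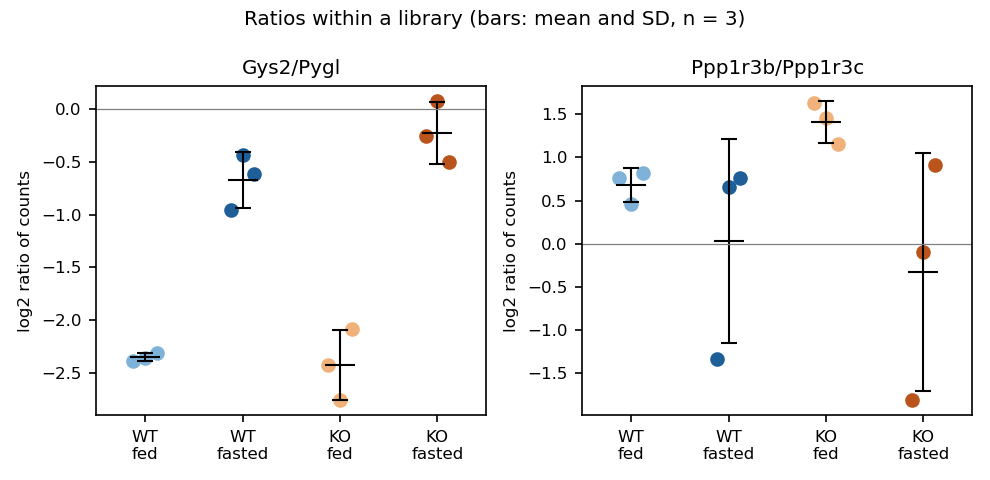
Log2 ratio of counts within each library (vertical axes) for Gys2 over Pygl and Ppp1r3b over Ppp1r3c, by genotype label and feeding state; points are mice and bars are the mean and SD (n = 3). The Gys2 to Pygl ratio of every fasted mouse exceeds that of every fed mouse, and Ppp1r3b to Ppp1r3c ratios of fasted mice range from 0.285 to 1.88 before the log.

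Levels of different genes were compared per kilobase of the longest annotated transcript. In fed mice labelled WT, Pygl was highest with a mean of 143 ± 9.58 CPM per kilobase (SD, n = 3), followed by Ugp2 with 73.7 ± 2.80, Ppp1r3c with 56.0 ± 13.5, Ppp1r3b with 49.3 ± 12.2, Gys2 with 33.2 ± 1.65 and Gbe1 with 21.7 ± 2.05. Phka2 (3.07), Gyg (2.58) and Ppp1r3g (0.715) were far lower. The ranges of neighbours in this order did not overlap except for Ppp1r3c and Ppp1r3b. In fasted mice labelled KO the order opened with Ugp2 (88.4 ± 19.8), Gys2 (73.7 ± 14.3) and Pygl (73.3 ± 19.1), whose ranges overlapped, and Ppp1r3b (15.2 ± 9.14) stood below Gbe1 (23.9 ± 1.5) with overlapping ranges. In fasted livers labelled WT, Pygl was at 73.3 ± 9.32 and Gys2 at 54.4 ± 4.91 CPM per kilobase, with ranges from 62.9 to 80.8 and from 49.1 to 58.9 that did not overlap. This order rests on the transcript length used: with the mean length of coding transcripts (1488 bases for Gys2 in place of 2663) Gys2 was at 97.4 ± 8.80 and Pygl at 81.2 ± 10.3 CPM per kilobase (SD, n = 3 each) in fasted livers labelled WT, with ranges from 88.0 to 106 and from 69.6 to 89.3 that overlapped, and at 132 ± 25.5 and 81.2 ± 21.2 in fasted livers labelled KO. In fed livers Pygl stayed above Gys2 with either length.

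The liver isoforms Gys2 and Pygl made up nearly all of their families in every mouse. Gys2 was 96.7% to 99.4% of the summed Gys1 and Gys2 level per kilobase, Gys1 being the muscle isoform. Pygl was 98.6% to 99.1% of the 3 phosphorylases, with the brain form Pygb at 0.616% to 1.32%. The share of Phka2 was lower, 79.8% to 88.8% of the summed Phka1 and Phka2 level. Of the 7 PP1 glycogen-targeting genes counted, Ppp1r3a, Ppp1r3d and Ppp1r3f were too low to be tested.

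To ask whether the genotype label was linked to these genes, livers labelled KO were compared with livers labelled WT in each feeding state. No member passed the test in fed or fasted livers, and neither did any other gene tested. The share passing was 0% of the 13812 genes in fed livers (876 had an unadjusted p under 0.05 in edgeR, and DESeq2 called 12) and 0% in fasted livers (685 and 4). With 3 mice in each group, a gene that did not pass is not shown to be unchanged. Nts, for one, was at 0 counts in every library labelled WT and was counted in every library labelled KO. The fed groups overlapped for all 9 genes, where 10.7% of all genes did not overlap, and the log2 differences lay between -0.42 (Ppp1r3c, interval -1.48 to 0.64) and 0.32 (Ppp1r3b, interval -0.56 to 1.2). In fasted livers Ugp2 alone of the 9 did not overlap, higher in all 3 mice labelled KO, where 12.2% of all genes did not overlap in either direction.

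Ugp2 in fasted livers was 216 ± 0.412 TMM-normalized CPM in mice labelled WT and 333 ± 74.8 in mice labelled KO (SD, n = 3 each). The log2 difference was 0.62 (SE 0.15, interval 0.29 to 0.96, edgeR adjusted p = 0.92). Its unadjusted p of 0.0013 ranked 13 among the 13812 genes, and without mouse 295 the log2 difference was 0.43. Gys2 in fasted livers was higher by 0.44 on the log2 scale in mice labelled KO (SE 0.15, interval 0.12 to 0.76, edgeR adjusted p = 0.92), the 153 of mouse 284 falling inside the WT range of 131 to 157. Pygl had the same mean, 231, under both labels, and the interval of its log2 difference ran from -0.39 to 0.39. For Ppp1r3b the difference was -0.64 (SE 0.40, interval -1.53 to 0.24, edgeR adjusted p = 0.92). Leaving out a mouse moved it to between -1.26 (without mouse 295) and -0.36 (without mouse 322), with -0.40 without mouse 284.

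Whether the fasting response itself differed between the genotype labels was tested as the difference of the log2 fold changes, KO minus WT. No member and no other gene passed, 0% of 13812 genes (663 with an unadjusted p under 0.05 in edgeR, 3 called by DESeq2). The difference was 0.72 for Ugp2 (SE 0.22, interval 0.25 to 1.18, edgeR adjusted p = 0.90), 0.56 for Gys2 (SE 0.21, interval 0.11 to 1.01, edgeR adjusted p = 0.90) and -0.96 for Ppp1r3b (SE 0.56, interval -2.21 to 0.28, edgeR adjusted p = 0.90). Without mouse 295 the last of these was -1.58. The fall of Ppp1r3b past the threshold under the KO label alone is therefore not shown to be larger than under the WT label. For Pygl the difference was 0.04, with an interval from -0.51 to 0.58. With both feeding states averaged, 0% of genes passed the test between the labels (859 with an unadjusted p under 0.05 in edgeR, 16 called by DESeq2), and none of the 16 was a member.

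Other genes of the pathway were taken from 3 lists. Their counts are to be read beside the shares of all genes tested that were called on fasting. Those shares were 18.1% in livers labelled WT and 16.8% in livers labelled KO. Of 7 further enzymes of glycogen and glucose 1-phosphate, 1 rose and 1 fell in livers labelled WT and none passed in livers labelled KO, where 3 had an unadjusted p under 0.05 in edgeR. Gaa, the lysosomal glucosidase that digests glycogen, rose by 0.61 on the log2 scale in livers labelled WT (edgeR adjusted p = 0.0082), and Pygb fell by 0.68 (edgeR adjusted p = 0.028). Both are named because so few were called, after their values were seen. The list's median log2 fold change was 0.09 in livers labelled WT and 0.16 in livers labelled KO.

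Of 26 further regulators, 22 were tested, and 2 rose and 1 fell in livers labelled WT while 1 rose in livers labelled KO. Over all genes tested, 18.1% and 16.8% were called, so these counts show no excess in the list. Ppp1cc, a catalytic subunit of PP1, rose in both, from 67.5 ± 2.67 to 99.9 ± 8.46 TMM-normalized CPM (SD, n = 3 each) in livers labelled WT (log2 0.57, edgeR adjusted p = 0.0040) and from 68.1 ± 6.31 to 108 ± 4.42 (SD, n = 3 each) in livers labelled KO (log2 0.67, edgeR adjusted p = 0.0014). The genes for the other PP1 catalytic subunits, Ppp1ca and Ppp1cb, did not pass. Gsk3a, a kinase that inactivates the synthase, rose by 0.44 on the log2 scale and Calm3, one of the genes for calmodulin, which is also a subunit of phosphorylase kinase, fell by 0.55, both in livers labelled WT and both named after their values were seen. The median log2 fold change of the 22 was 0.18 in livers labelled WT and -0.0045 in livers labelled KO.

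Of 5 genes at the entry and exit of glucose phosphate, 1 rose and 1 fell in livers labelled WT and 2 rose in livers labelled KO. The shares over all genes tested were 18.1% and 16.8%, and a list of 5 genes is too short for a comparison with them. Slc37a4, the transporter that carries glucose 6-phosphate to glucose 6-phosphatase, rose from 92.9 ± 18.2 to 249 ± 29.5 TMM-normalized CPM (SD, n = 3 each) in livers labelled WT and from 94.6 ± 6.47 to 278 ± 62.1 (SD, n = 3 each) in livers labelled KO. Its log2 fold changes were 1.42 and 1.56 (edgeR adjusted p = 0.00026 and 0.00011). G6pc, the phosphatase itself, passed in livers labelled KO only, at 1.43 (edgeR adjusted p = 0.0095) against 0.86 (edgeR adjusted p = 0.077) in livers labelled WT, and Gckr passed in livers labelled WT only, at -0.79 (edgeR adjusted p = 0.029) against -0.13 (edgeR adjusted p = 0.73). Both were named after their values were seen. Neither passed the test of the difference between the labels, and no gene of the 3 lists passed in a genotype comparison.

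**Figure D4:**
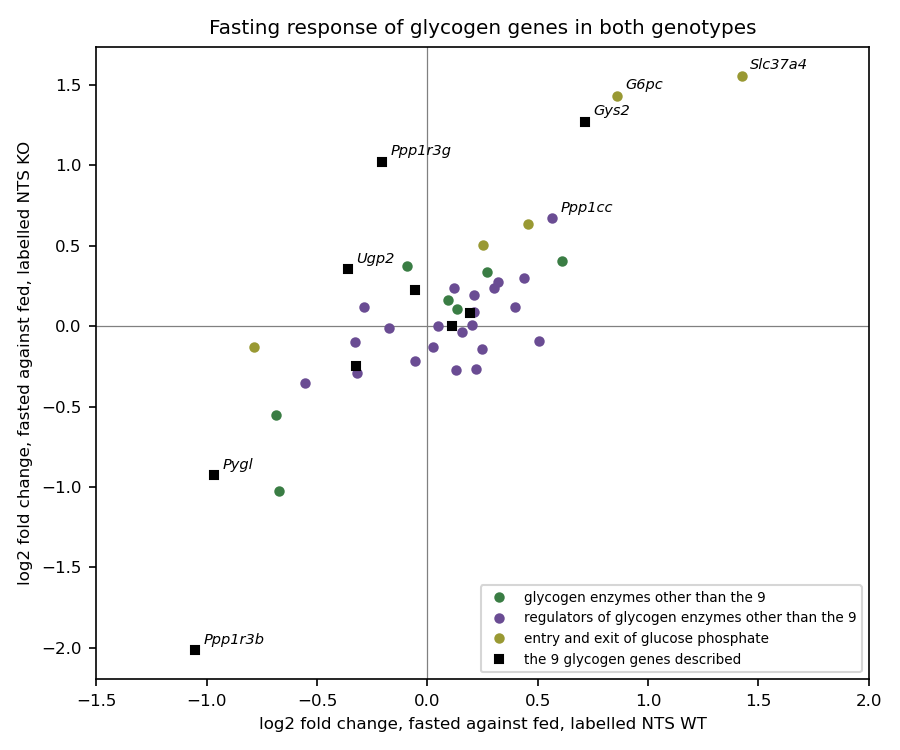
Log2 fold change on fasting in livers labelled WT (horizontal axis) and labelled KO (vertical axis) for the 9 glycogen genes (squares) and for the tested genes of the 3 other lists (circles); each point is a gene. Slc37a4 lies at 1.42 and 1.56 and Gys2 at 0.71 and 1.27, while Ugp2 has values of opposite sign, -0.36 and 0.35.

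Some markers of other cells also passed the test on fasting. So did 18.1% of all genes tested in livers labelled WT and 16.8% in livers labelled KO. These shares stand beside every count of markers here and in the next paragraph, and the lists are short. Of 5 markers of sinusoidal endothelium, 1 rose (Lyve1) and 2 fell (Clec4g, Fcgr2b) in livers labelled WT and 2 fell (Clec4g, Oit3) in livers labelled KO, and their summed level went from 138 to 207 TMM-normalized CPM in fed mice to 120 to 132 in fasted mice labelled WT and from 161 to 178 to 116 to 133 in those labelled KO. Of 5 stellate cell markers, Lrat fell in both and Reln in livers labelled KO, with sums of 244 to 274 against 202 to 233 and of 218 to 282 against 208 to 225. Of 6 Kupffer cell markers Clec4f fell in livers labelled WT, with sums of 408 to 483 against 201 to 349, and none was called in livers labelled KO (250 to 349 against 261 to 404). Their part in the values of the glycogen genes was not tested.

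The hepatocyte list (5 of its 6 markers matched) summed to 113000 to 135000 TMM-normalized CPM in fed and 116000 to 139000 in fasted mice labelled WT, and to 106000 to 124000 and 118000 to 125000 in those labelled KO; Ttr fell and Apoa1 rose under both labels. None of 6 lymphocyte and of 4 neutrophil markers was called (sums of 4.13 to 8.92 and of 0.833 to 6.61 over all mice). Spp1 fell in livers labelled WT and Sox9 in livers labelled KO among 5 cholangiocyte markers (33.4 to 49.7 in fed against 13.7 to 29.6 in fasted mice), and Alas2 fell in livers labelled KO among 4 erythroid markers (150 to 394 over all mice). Of skeletal muscle markers, Acta1 and Myh4 were at 0 counts in all 12 libraries and the list summed to at most 0.833 TMM-normalized CPM. Of pancreas markers, Ctrb1, Cpa1 and Pnlip were at 0 counts in all 12 libraries, while Cela1 was counted in every library and fell under both labels (2.66 to 5.45 in fasted against 7.49 to 13.3 in fed mice for the list). Lep had 0 counts throughout among adipocyte markers, and Cidec, also a lipid droplet gene of fasted liver, rose by 6.53 and 7.18 on the log2 scale. Marker genes called were named after their values were seen.

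Among mice of the same group, some members varied together. After each group mean was taken off, log2 CPM of Pygl and Phka2 had a Pearson r of 0.855 over the 12 mice, Pygl and Ppp1r3b 0.615, Pygl and Gyg -0.741, and Gys2 and Ppp1r3c -0.819. The genes most like Gys2 by this measure, of 7326 compared, were Cdc42ep4 (r = 0.936) and Sh3gl1 (0.899), and those most like Pygl were Exoc4 (0.987) and Abcb11 (0.937), the bile salt export pump. The points share library depth and composition, and the values describe these 12 libraries only.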

How the data were processed

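RNA was extracted from whole livers of 12 mice, 3 in each group, and the authors deposited 1 table of expected counts (fractional read estimates per gene) with Ensembl identifiers, symbols and GRCm38 positions. The submitters' processing notes name Trimmomatic, RSEM and GRCm38; versions and the strand setting are not given in the sources used here. The counts carry no normalization between mice, and reads shared by related genes are divided by estimate. Totals of 21999656 to 45273081 counts put a floor of 3 counts at 0.0663 to 0.136 CPM.

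The deposited values were rounded. Of all genes, 13812 passed filterByExpr of edgeR 4.0.16 (R 4.3.3) and were normalized by TMM. A robust quasi-likelihood model with a mean per group was fitted to all 12 mice, without covariates, and p-values were Benjamini-Hochberg adjusted over all genes tested. SE is the log2 fold change over the square root of F, and intervals are 95%. The biological coefficient of variation was 0.202. TMM-normalized CPM are counts scaled to a common total after TMM; values per kilobase use the longest GENCODE vM39 transcript, matched by Ensembl identifier. In data simulated for fasted against fed livers labelled WT (13812 genes), 61 of 100 genes changed 2-fold and 88 of 100 changed 4-fold were called, as were 7 of 13612 unchanged genes. Only those genes were changed, whereas 2501 were called in the real comparison. The adjusted threshold was therefore stricter in the simulation, and these shares do not give the power of the real comparison.

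The glycogen genes and all lists were chosen with earlier results of these data known. All 9 glycogen genes are named; of the 3 pathway lists, genes called in both fasting comparisons are named, at most 6 per list, and others were named after their values were seen. Correlations used log2 CPM with a prior count of 2. Tried in turn were normalization by RLE or the upper quartile, the DESeq2 1.42.0 Wald test, dropping the count filter, a minimum of 10 counts per mouse, fitting the compared groups alone, removal of the trend with gene length, an adjusted p under 0.10, leaving out each mouse, CPM without TMM and the mean length of coding transcripts. A planned comparison of protein sequences was not made. Some genes of the pathway lists are not reported here and are left out of the lists' counts, medians and plot.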

Additional observations from a re-analysis of the deposited data

How the results depend on the processing

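Gys2 and Pygl kept their direction and their call in the fasting comparisons under every alternative run, with log2 fold changes of 0.65 to 0.79 (Gys2, labelled WT), 1.16 to 1.42 (Gys2, labelled KO), -1.03 to -0.87 (Pygl, labelled WT) and -1.15 to -0.78 (Pygl, labelled KO). Ppp1r3b in livers labelled KO stayed called, from -2.63 to -1.76. In livers labelled WT its log2 fold change of -1.05 passed when only the fed and fasted WT groups were fitted (adjusted p = 0.036) and at an adjusted p under 0.10 (0.097), so that 3 of 9 genes were then called, and over all alternatives its adjusted p lay between 0.036 and 0.25. Signs turned only for differences that were not called. Gbe1 in livers labelled KO was -0.0296 by upper-quartile normalization. Leaving out a mouse gave -0.75 to 0.22 for Ppp1r3g and -0.87 to -0.06 for Ppp1r3c in livers labelled WT, 0.51 to 2.35 for Ppp1r3g, -0.89 to 0.0337 for Ppp1r3c, -0.19 to 0.18 for Gbe1 and -0.0293 to 0.23 for Gyg in livers labelled KO, and -0.15 to 0.0145 for Ugp2 between fed groups. For the other members in the genotype comparisons, 37 of 279 refits changed sign, all from reported differences of at most 0.345 in size, and none was called. With a mouse left out, counts over all genes were 1224 (without mouse 282) to 2418 in livers labelled WT, against 2501, with 1326 without mouse 254 and 1596 without mouse 257. In livers labelled KO they were 1358 (without mouse 277) to 2631, against 2326, with 1365 without mouse 290 and 1523 without mouse 284. The cause was not tested. Between genotypes, DESeq2 called 12 genes in fed livers, 4 in fasted livers, 3 for the difference and 16 averaged, where edgeR called 0. Without the count filter edgeR called 1 in fed livers and 1 averaged, 1 in fasted livers with only the compared groups, and 1 averaged at an adjusted p under 0.10. Leaving out a mouse gave 0 to 2 in fed livers (2 without mouse 323 or 319), 0 to 1 for the difference (1 without mouse 323) and 0 to 4 averaged (4 without mouse 323, 2 without mouse 319). None of these was a glycogen gene. With the mean length of coding transcripts the level over all mice moved from 47.9 to 85.8 CPM per kilobase for Gys2, above Ugp2 at 77.0, from 23.2 to 27.5 for Gbe1 and from 3.03 to 4.21 for Phka2, and Gys2 then stood above Pygl in fasted livers, so the place of Gys2 in the order depends on the transcript chosen. No paired analysis was possible because the mouse numbers are not shared between groups and the litter of each mouse is not given in the sources used here. With 3 mice a group and 6 to 107 counts a library, changes of several fold in Ppp1r3g lay inside its fasting intervals, except a fall of that size under the KO label.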
